A study of Arabidopsis thaliana with 12 samples.

Results

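The cyclins, the cyclin-dependent kinases (CDKs) and the proteins annotated with them were followed in Arabidopsis thaliana roots. Members were all genes of the deposited expression table whose UniProt description contains the word cyclin, with cyclophilins not matched. This rule gave 84 of 25941 genes and used no measured value. They comprised 9 A-type, 12 B-type and 9 D-type cyclins, 10 cyclins of the C, H, J, L, T and SDS kinds, 8 P-type cyclins (also called U-type), 16 kinases, 11 CDK inhibitors, 2 CKS subunits and 7 genes that only the description names as cyclin-related.

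Roots came from OX3, 1 transgenic line that overexpresses GmVP2, the soybean gene of a vacuolar proton pyrophosphatase, and from the wild type (WT), which is Columbia-0. Seeds of both were grown for 10 days on solid MS medium with either 6.25 µM phosphate (low) or 1250 µM phosphate (normal). The 4 groups were OX3 at low phosphate (replicates 1, 2 and 4), OX3 at normal phosphate (2, 3 and 4), WT at low phosphate (2, 3 and 4) and WT at normal phosphate (2, 3 and 4), with 3 RNA sequencing libraries each. A single transgenic line cannot separate the transgene from its insertion site, and its promoter is not named in the labels. The transcript of the transgene was not analysed here.

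Cyclins are regulatory subunits that switch on CDKs, and different cyclins carry a cell through successive phases of its cycle. In plants, D-type cyclins act with CDKA;1 at the entry into the cycle by inactivating the retinoblastoma protein RBR1, A-type cyclins act mainly in DNA replication and G2, and B-type cyclins act with the same kinase and the plant-specific B-type kinases in mitosis. KRP and SIAMESE-related (SMR) proteins inhibit these kinases. In roots, dividing cells lie in the meristem behind the tip, and low phosphate is known to shorten the primary root of Columbia-0 by exhausting that meristem.

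Values are RPKM, reads scaled to the length of the gene and the total of its library, from libraries of 17670350 to 20418541 reads. Fold changes are log2 differences of RPKM + 1, with their standard error (SE), from 1 limma fit to the 18910 genes whose mean reached 1 RPKM. A call means an adjusted p (Benjamini-Hochberg, two-sided) under 0.05. Nothing in the labels shows whether replicates were different plants, so the tests reflect only the spread among these libraries, which may be technical. All 9 root markers examined exceeded the minimum. Of 5 shoot markers measured, GL1 averaged 0 to 0.0583 RPKM and YAB3 averaged 0 to 0.0327 RPKM in the 4 groups, KAN1 averaged 3.85 to 5.85 RPKM, LHCB1.3 averaged 85.5 to 343.6 RPKM and RBCS1A averaged 57.4 to 217.7 RPKM, the last 2 being photosynthesis genes. In bulk root RNA, fewer cells of a type and less RNA per cell cannot be told apart.

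Of the 84 members, 73 passed the minimum and 11 did not. Below it were the B-type genes CYCB1;5, CYCB2;5 and AT3G27185, the P-type genes CYCP2;1 and AT3G05327, CYCJ18, CYCT1;2, the inhibitor SMR1, and 3 genes named by description only. CYCB2;5 had values above 0 in 2 of 12 libraries, CYCP2;1 in 2 and AT3G27185 in 1, while CYCT1;2 lay just under the minimum at 0.451 to 1.18 RPKM.

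At low phosphate more members were called higher than lower in both genotypes. In OX3, 21 of 73 members rose (28.8%) and 8 fell (10.96%), where 23.3% and 23.8% of all tested genes were called higher and lower. In WT, 26 rose (35.6%) and 6 fell (8.22%), where 24.3% and 21.6% of all tested genes were called higher and lower. Calls in either direction covered 39.7% of members and 47% of all tested genes in OX3, and 43.8% of members and 46% of all tested genes in WT. The median log2 change of the members was 0.11 in OX3 and 0.15 in WT, beside -0.02 and 0.02 over all tested genes. All low phosphate libraries lay above all normal phosphate libraries for 30 members in OX3 and 29 in WT (27.6% and 27.8% of all genes), and below them for 12 and 7 members (29.8% and 25.2% of all genes). Groups that did not overlap in either direction made up 57.4% of all genes in OX3 and 53% in WT. Most changes were small: 2 called members in OX3 and 1 in WT moved by at least 1 on the log2 scale. Of all 18910 tested genes, 856 were called higher and 634 lower by at least 1 in OX3, and 846 and 627 in WT.

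**Figure D1:**
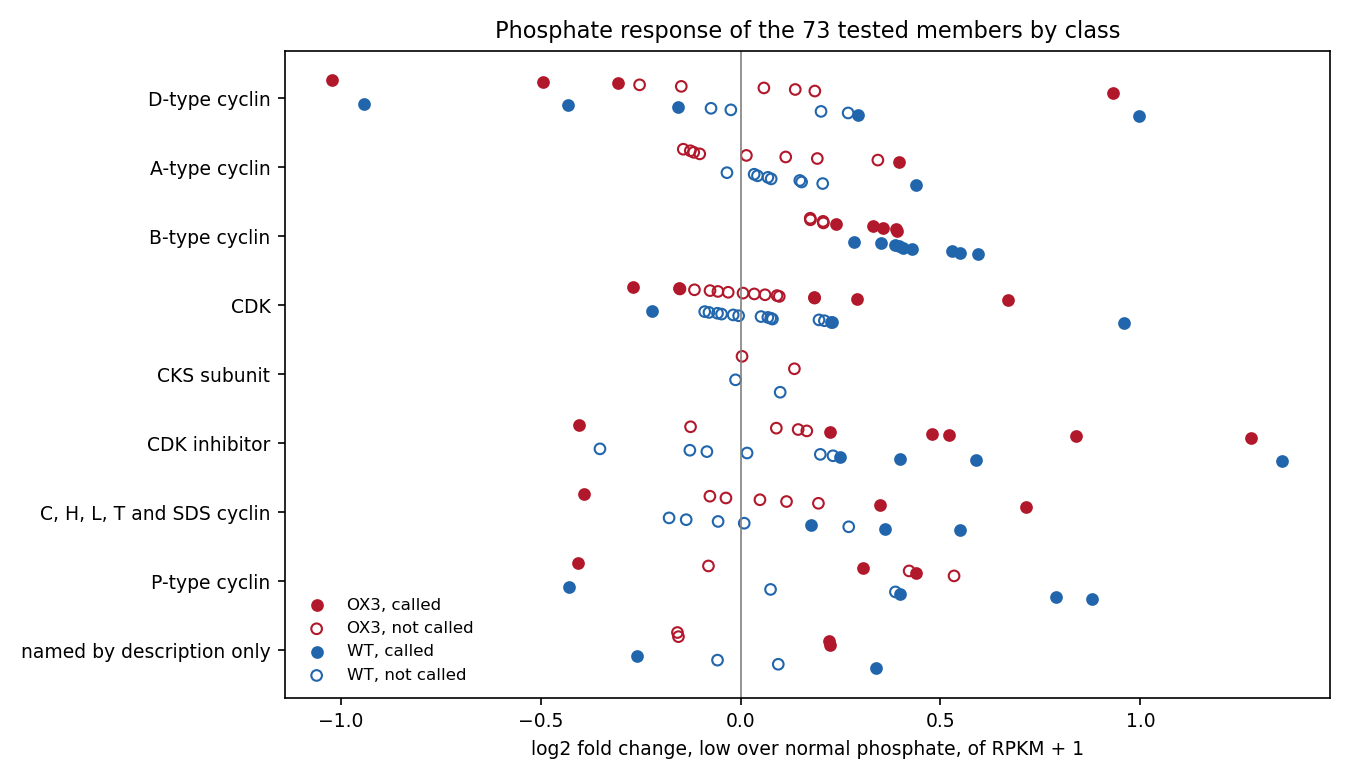
Log2 fold change (low over normal phosphate, of RPKM + 1) of each of the 73 tested members, by class, with OX3 above WT in each class, and filled points for called members. B-type cyclins lie to the right of 0 in both genotypes, while D-type cyclins span -1.02 to 0.93 in OX3 and -0.94 to 1.00 in WT.

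The D-type cyclins, which link growth signals to cell cycle entry, included members that moved in opposite directions. Mean RPKM of CYCD1;1 at low phosphate was 2.04 times that at normal phosphate in OX3 and 2.14 times in WT, and that of CYCD3;1 was 0.485 times in OX3 and 0.512 times in WT. The summed level of the 9 genes had a median of 117.8 RPKM in OX3 at low phosphate against 145.2 RPKM at normal phosphate, and 115.5 RPKM in WT at low phosphate, against 137.3 RPKM at normal phosphate. Of the 9, 1 rose and 3 fell in OX3, and 2 rose and 3 fell in WT. The shares of all tested genes were 23.3% higher and 23.8% lower in OX3, and 24.3% and 21.6% in WT.

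CYCD3;1 (AT4G34160, chromosome 4, 16357421 to 16359565, plus strand in TAIR10.1), a cyclin that responds to cytokinin and sugar and restrains the switch from division to endoreduplication, had 25.7, 29.5 and 24.8 RPKM in OX3 at low phosphate, against 57.2, 54.2 and 53.6 RPKM at normal phosphate. WT libraries had 28.8, 27.9 and 25.04 RPKM at low phosphate, against 52.5, 54.0 and 52.8 RPKM at normal phosphate. The groups did not come near each other in either genotype. The log2 change was -1.02 ± 0.067 in OX3 (SE, limma adjusted p = 1.6e-08) and -0.94 ± 0.067 in WT (3.63e-08).

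CYCD1;1 (AT1G70210, chromosome 1, 26439556 to 26443007, plus strand), an activator of early cell cycle entry, had 14.6, 13.5 and 14.8 RPKM in OX3 at low phosphate, against 7.29, 6.82 and 6.98 RPKM at normal phosphate. In WT the libraries had 14.4, 14.4 and 13.9 RPKM at low phosphate, against 6.23, 6.68 and 7.07 RPKM at normal phosphate. Every low phosphate library exceeded every normal phosphate one, with log2 changes of 0.93 ± 0.066 in OX3 (SE, limma adjusted p = 3.38e-08) and 1.00 ± 0.066 in WT (1.61e-08).

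Together these changes altered the makeup of the D-type transcripts. CYCD3;1 made up a median of 22.9% of the summed D-type RPKM in OX3 at low phosphate, against 37.8% at normal phosphate, and 22.3% in WT at low phosphate, against 39.3% at normal phosphate. The share of CYCD1;1 was 12.3% in OX3 at low phosphate, against 4.93% at normal phosphate, and 12.1% in WT at low phosphate, against 4.86% at normal phosphate.

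**Figure D2:**
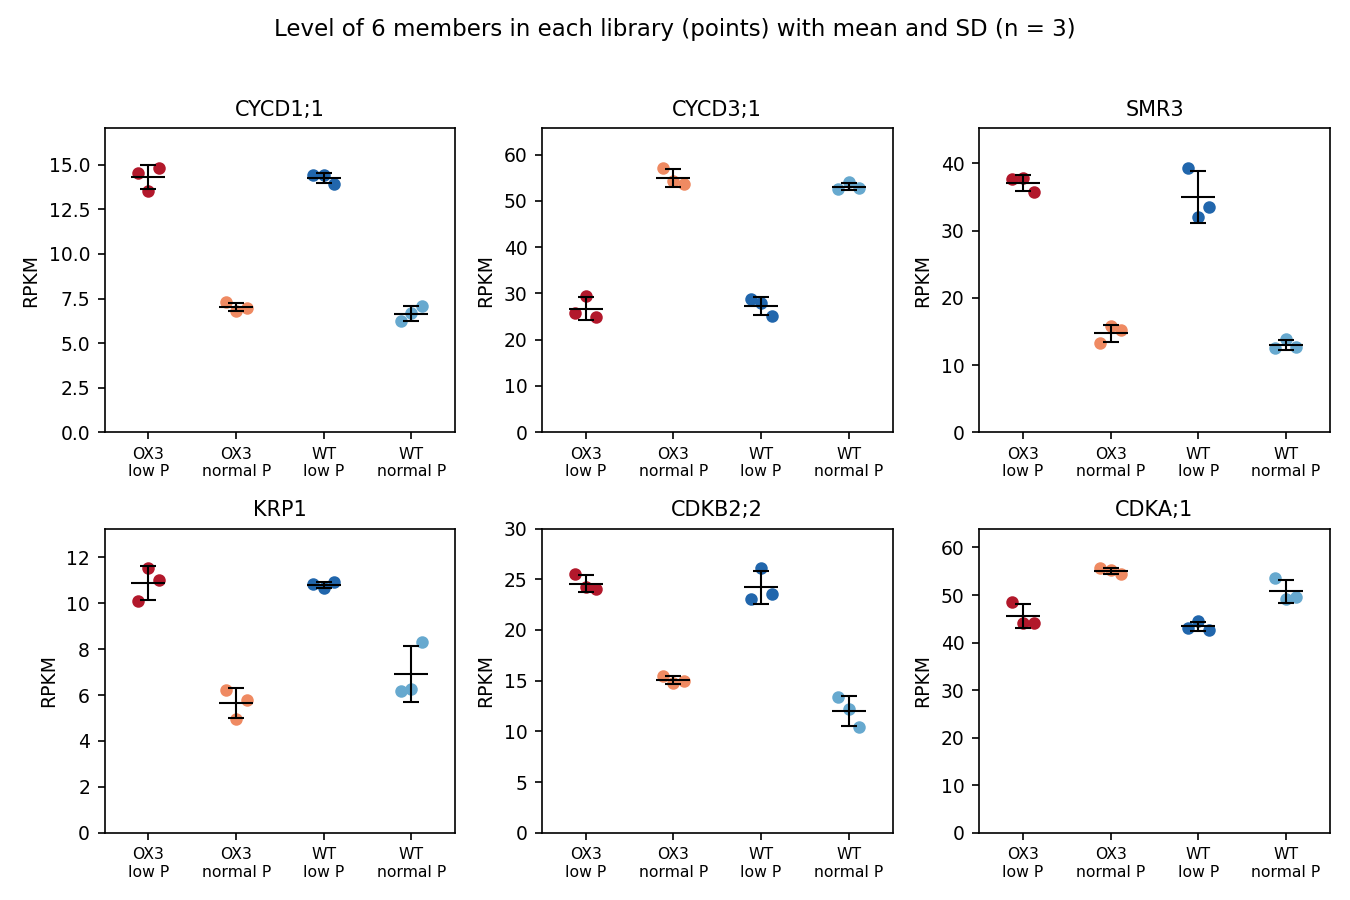
Level (RPKM, axes from 0) of CYCD1;1, CYCD3;1, SMR3, KRP1, CDKB2;2 and CDKA;1 in each library (points), with group means and SD (n = 3), from left to right in OX3 at low and normal phosphate and WT at low and normal phosphate. Low and normal phosphate libraries separate in every panel within each genotype, downward for CYCD3;1 and CDKA;1 and upward for the others.

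Smaller shifts were seen in other D-type genes. CYCD2;1 (AT2G22490), a partner of the A-type kinase, had 18.2, 18.8 and 19.1 RPKM in OX3 at low phosphate, against 22.8, 23.9 and 23.4 RPKM at normal phosphate, and fell by 0.31 on the log2 scale (SE 0.058, limma adjusted p = 0.000551). In WT the values were 18.3, 20.6 and 18.8 RPKM at low phosphate, against 22.6, 21.1 and 21.0 RPKM at normal phosphate (log2 -0.16, limma adjusted p = 0.0381). That WT call was lost without any 1 of 6 libraries: WT low phosphate replicate 2 (limma adjusted p = 0.121) or 4 (0.108), WT normal phosphate replicate 2 (0.14), 3 (0.0556) or 4 (0.0517), or OX3 normal phosphate replicate 4 (0.0527), and in a fit of the WT libraries alone (0.0943).

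CYCD6;1 (AT4G03270), which in the root meristem acts in the formative division of the ground tissue, had 0.975, 1.46 and 1.84 RPKM in OX3 at low phosphate, against 2.05, 2.21 and 2.93 RPKM at normal phosphate. The WT roots had 1.66, 2.05 and 1.52 RPKM at low phosphate, against 2.16, 3.05 and 2.92 RPKM at normal phosphate. The groups did not overlap, at log2 changes of -0.49 ± 0.15 in OX3 (SE, limma adjusted p = 0.0153) and -0.43 ± 0.15 in WT (0.0312). The opposite-strand gene AT4G03260 covers 24.4% of its exon bases, and that gene averaged 30.4 RPKM in OX3 at low phosphate against 41.1 RPKM at normal phosphate, and 33.1 RPKM in WT at low phosphate, against 42.8 RPKM at normal phosphate, so reads of both could not be told apart without strand. The call in OX3 was lost without OX3 low phosphate replicate 1 (limma adjusted p = 0.0806) or OX3 normal phosphate replicate 4 (0.078), and that in WT without WT low phosphate replicate 2 (0.0713) or 4 (0.102) or WT normal phosphate replicate 3 (0.11) or 4 (0.0943).

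CYCD5;1 (AT4G37630) had 5.71, 6.41 and 6.97 RPKM in OX3 at low phosphate, against 5.44, 5.87 and 5.07 RPKM at normal phosphate, a log2 change of 0.19 that did not pass (limma adjusted p = 0.171). WT roots gave 5.97, 7.69 and 7.78 RPKM at low phosphate, against 6.22, 5.01 and 5.67 RPKM at normal phosphate. These WT groups overlapped, the log2 change of 0.29 passed (limma adjusted p = 0.0364), and the call was lost without WT low phosphate replicate 3 (0.123) or 4 (0.134) or WT normal phosphate replicate 3 (0.146) or 4 (0.0701), with no minimum level (0.0606), with the correction for GC content and length (0.0934) or in a fit of the WT libraries alone (0.0694). CYCD4;1 (AT5G65420), which is active in the pericycle where lateral roots begin, had 4.23, 3.76 and 4.47 RPKM in OX3 at low phosphate, against 4.77, 5.38 and 5.26 RPKM at normal phosphate (log2 -0.25, limma adjusted p = 0.102). In the wild type it had 4.20, 3.34 and 3.69 RPKM at low phosphate, against 3.59, 4.86 and 3.14 RPKM at normal phosphate (log2 -0.02, limma adjusted p = 0.891). Its OX3 change passed in a fit of the OX3 libraries alone (limma adjusted p = 0.0442), with the correction for GC content and length (0.0379) and without WT normal phosphate replicate 3 (0.0496). CYCD3;2 and CYCD3;3, the other genes of the D3 kind, did not pass in either genotype, with log2 changes of 0.14 and -0.15 in OX3 and 0.27 and -0.07 in WT, nor did CYCD4;2 (0.06 and 0.20). CYCD3;2 passed in WT with voom (limma adjusted p = 0.0459) and without WT low phosphate replicate 2 (0.0114) or WT normal phosphate replicate 2 (0.0395), and CYCD3;3 passed in OX3 in a fit of the OX3 libraries alone (0.0442).

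The A-type cyclins, which act in replication and G2, were mostly not called. Calls in either direction covered 47% of all tested genes in OX3 and 46% in WT. Their summed level was 69.1 to 70.4 RPKM in OX3 at low phosphate, against 68.0 to 69.9 RPKM at normal phosphate, and 63.3 to 79.2 RPKM in WT at low phosphate, against 60.1 to 67.3 RPKM at normal phosphate. CYCA2;4 (AT1G80370), whose family restrains endoreduplication, was the 1 member called, with 9.76, 9.85 and 10.2 RPKM in OX3 at low phosphate, against 7.22, 7.92 and 6.85 RPKM at normal phosphate. The values in WT were 8.74, 11.96 and 11.4 RPKM at low phosphate, against 8.25, 8.02 and 6.56 RPKM at normal phosphate, and the groups did not overlap in either genotype (log2 0.40 and 0.44, limma adjusted p = 0.00702 in OX3 and 0.00373 in WT). The log2 changes of the other 8 ran from -0.14 to 0.34 in OX3 and from -0.03 to 0.21 in WT.

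The B-type cyclins, the mitotic cyclins, were higher at low phosphate. All 9 tested genes rose in WT and 5 of 9 rose in OX3, with all 9 log2 changes above 0 in each genotype. Of all tested genes, 24.3% were called higher in WT and 23.3% in OX3. The median change was 0.24 in OX3 (0.17 to 0.39) and 0.41 in WT (0.28 to 0.59). The summed level of the 12 genes was 89.9 to 97.2 RPKM in OX3 at low phosphate, against 73.7 to 77.5 RPKM at normal phosphate, and 88.1 to 106.1 RPKM in WT at low phosphate, against 65.2 to 75.0 RPKM at normal phosphate. The count in OX3 was 3 of 9 without OX3 low phosphate replicate 4, OX3 normal phosphate replicate 2 or OX3 normal phosphate replicate 3, and 3 to 6 over all omissions of a single library. In WT it was 7 to 9 over the same omissions. Over all tested genes, 3788 to 4534 were called higher in OX3 and 4063 to 4647 in WT in these omissions.

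**Figure D3:**
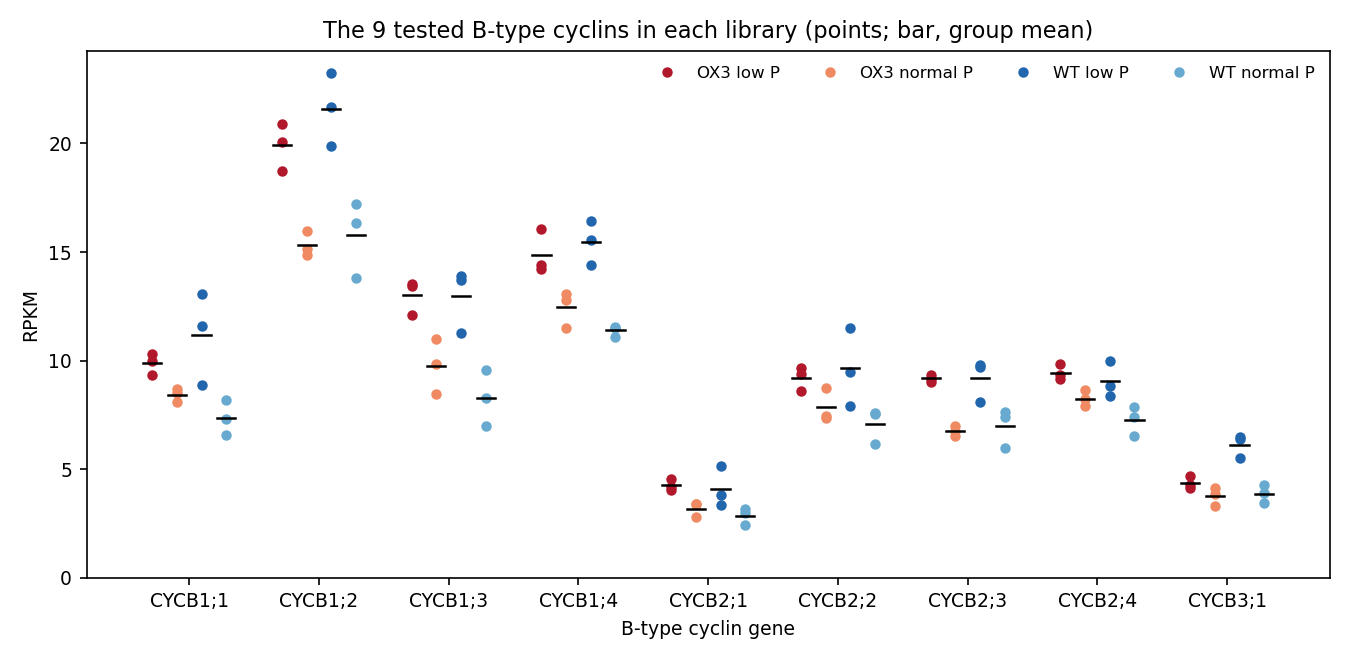
Level (RPKM) of the 9 tested B-type cyclin genes in each library (points), with the group mean as a bar, in the order OX3 at low phosphate, OX3 at normal phosphate, WT at low phosphate and WT at normal phosphate. The low phosphate means exceed the normal phosphate means for every gene in both genotypes, and CYCB1;2 has the highest level, at 13.8 to 23.2 RPKM.

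CYCB1;1 (AT4G37490, chromosome 4, 17621886 to 17624308, minus strand), the usual reporter of cells in G2 and mitosis, had 9.33, 10.3 and 9.98 RPKM in OX3 at low phosphate, against 8.69, 8.08 and 8.49 RPKM at normal phosphate. These libraries did not overlap, but the log2 change of 0.21 ± 0.11 (SE) did not pass (limma adjusted p = 0.142), except in a fit of the OX3 libraries alone (0.0362) and without WT low phosphate replicate 2 (0.0492). In WT it had 8.89, 13.1 and 11.6 RPKM at low phosphate, against 7.33, 8.21 and 6.60 RPKM at normal phosphate. The WT groups did not overlap either, and the log2 change of 0.53 ± 0.11 (SE) passed (limma adjusted p = 0.00121).

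CYCB1;3 (AT3G11520) had the largest change of the class in WT, with 11.3, 13.7 and 13.9 RPKM at low phosphate, against 8.28, 9.58 and 6.97 RPKM at normal phosphate (log2 0.59, limma adjusted p = 0.000556). In OX3 it had 12.1, 13.6 and 13.4 RPKM at low phosphate, against 9.84, 8.46 and 10.99 RPKM at normal phosphate (log2 0.39, limma adjusted p = 0.0113), a call lost without OX3 normal phosphate replicate 3 (0.0611). CYCB1;2 (AT5G06150) rose by 0.36 in OX3 and 0.43 in WT, CYCB1;4 (AT2G26760) by 0.24 and 0.41, and CYCB2;3 (AT1G20610) by 0.39 and 0.35. CYCB2;1 (AT2G17620) rose by 0.33 in OX3 (limma adjusted p = 0.0428, and 0.0698 with no minimum level) and 0.40 in WT (0.0184, and 0.0516 in a fit of the WT libraries alone). The OX3 call of this gene was lost without any 1 of the 6 OX3 libraries or WT normal phosphate replicate 2 (limma adjusted p of 0.051 to 0.157), and its WT call without WT low phosphate replicate 3 (0.0989) or WT normal phosphate replicate 4 (0.0838). CYCB1;4 was lost in OX3 without OX3 low phosphate replicate 4 (limma adjusted p = 0.0549) or OX3 normal phosphate replicate 2 (0.0653). CYCB2;2, CYCB2;4 and CYCB3;1 had log2 changes of 0.21, 0.17 and 0.17 in OX3, which did not pass, and rose by 0.39, 0.28 and 0.55 in WT. In WT, CYCB2;2 was lost without WT low phosphate replicate 4 (limma adjusted p = 0.0707) or WT normal phosphate replicate 3 (0.0648), and CYCB2;4 without WT low phosphate replicate 3 (0.0547) or WT normal phosphate replicate 4 (0.0548). Of the 50-base stretches of CYCB2;3, 16.99% occur elsewhere in the genome, and 11.3% of those of CYCB1;2, so the share of reads assigned to each is uncertain.

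Markers of the root meristem were higher in sum at low phosphate, and so was the median sum of all 9 root markers. The summed level of PLT1, PLT2, WOX5, SCR and SHR, which specify or maintain the stem cell niche, was 38.2 to 41.7 RPKM in OX3 at low phosphate, against 26.8 to 29.4 RPKM at normal phosphate, and 38.5 to 49.98 RPKM in WT at low phosphate, against 31.1 to 35.1 RPKM at normal phosphate. The 9 root markers were these 5 with RHD6, COBL9, CASP1 and the phosphate transporter PHT1;1. Together they summed to 395.4 to 465.3 RPKM in OX3 at low phosphate, against 266.5 to 310.5 RPKM at normal phosphate. In WT the sums were 371.6 to 468.9 RPKM at low phosphate, against 332.7 to 382.3 RPKM at normal phosphate. Most of each sum came from genes other than the 5 of the stem cell niche. Of the 9, 8 were called higher in each genotype, where 23.3% of all tested genes were in OX3 and 24.3% in WT. Whether these sums follow cell types or the phosphate response of single genes was not tested. The summed level of shoot markers was lower at low phosphate. The 5 measured summed to 156.1 to 187.4 RPKM in OX3 at low phosphate, against 552.2 to 577.1 RPKM at normal phosphate, and to 135.4 to 156.9 RPKM in WT at low phosphate, against 347.2 to 403.3 RPKM at normal phosphate. Nearly all of this sum was LHCB1.3, which fell by 1.77 on the log2 scale in OX3 and by 1.38 in WT, and RBCS1A, which fell by 1.69 in OX3 and by 1.33 in WT. The third tested, KAN1, rose by 0.34 in OX3 (limma adjusted p = 0.0132, and 0.0635 without OX3 low phosphate replicate 2), and its change of 0.23 in WT did not pass (0.0833). The part of the tissue makeup in the results on phosphate was not tested.

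Promoters of B-type cyclins are known to carry mitosis-specific activator elements, with the core AACGG, that MYB3R transcription factors bind. The 250 bases before the annotated gene start were searched on both strands, with overlapping matches counted, for 82 protein-coding members and all 23961 such genes of the table with a full window. At least 2 matches were found in 6 of 12 B-type genes (50%), 4 of 9 A-type genes (44.4%) and 3 of 11 CDK inhibitors (27.3%), beside 3.81% of all promoters. The 6 B-type windows are shown because they hold the matches, given here from the genome sequence of TAIR10.1 (RefSeq), 5′ to 3′ on the strand of the gene, with AACGG or its reverse complement CCGTT in capitals.
CYCB1;1, chr4:17624309-17624501, minus strand: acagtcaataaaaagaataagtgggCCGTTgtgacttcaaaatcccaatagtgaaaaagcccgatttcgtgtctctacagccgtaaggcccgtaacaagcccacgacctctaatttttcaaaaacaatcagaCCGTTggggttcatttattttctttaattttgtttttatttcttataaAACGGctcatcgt
CYCB1;2, chr5:1861704-1861871, minus strand: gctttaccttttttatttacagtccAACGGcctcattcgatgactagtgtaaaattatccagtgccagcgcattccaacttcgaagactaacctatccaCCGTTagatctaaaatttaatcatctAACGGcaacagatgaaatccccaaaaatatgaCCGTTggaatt
CYCB1;3, chr3:3627274-3627362, minus strand: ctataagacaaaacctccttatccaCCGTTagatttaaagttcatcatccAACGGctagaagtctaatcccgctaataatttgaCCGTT
CYCB2;1, chr2:7663893-7664028, plus strand: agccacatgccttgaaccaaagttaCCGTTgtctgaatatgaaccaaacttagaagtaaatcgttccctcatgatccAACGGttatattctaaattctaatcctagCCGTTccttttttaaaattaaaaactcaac
CYCB2;2, chr4:16901399-16901523, plus strand: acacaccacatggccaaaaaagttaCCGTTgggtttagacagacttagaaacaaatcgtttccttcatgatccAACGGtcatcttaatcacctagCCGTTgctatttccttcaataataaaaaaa
CYCB2;3, chr1:7137846-7137967, minus strand: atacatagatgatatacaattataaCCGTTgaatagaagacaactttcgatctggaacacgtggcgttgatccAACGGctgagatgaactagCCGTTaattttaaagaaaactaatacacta

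Matches were found in both called and uncalled members. At least 1 match was present in 9 of 21 members called higher in OX3 (42.9%) and 10 of 44 uncalled ones (22.7%), and in 10 of 26 called higher in WT (38.5%) and 10 of 41 uncalled ones (24.4%). Of members called lower, 2 of 8 in OX3 (25%) and 1 of 6 in WT (16.7%) had at least 1 match. At least 2 were present in 12.5% and 0% of those. At least 2 matches were present in 23.8% of the members called higher and 18.2% of the uncalled ones in OX3, and in 26.9% and 17.1% in WT, shares that were not tested. CYCB1;4, CYCB2;4 and CYCB3;1 have no match in this window and rose in WT as the other 6 did, and CYCB1;1 and CYCB2;2, with 3 matches each, were not called in OX3. All 4 A-type genes with 2 matches (CYCA1;1, CYCA1;2, CYCA2;1 and CYCA3;1) were uncalled in both genotypes, although CYCA2;1 reached a limma adjusted p of 0.0531 in OX3 and passed there with median-ratio size factors (0.0482), with no minimum level (0.0439) and with voom on the recovered reads (0.0338). Among all genes called higher, 3.65% in OX3 and 3.7% in WT have at least 2 matches. MYB3R4, an activator that binds this element, and MYB3R1 did not pass, with log2 changes of -0.16 and 0.11 in OX3 and -0.08 and 0.04 in WT.

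Among the kinases, the B2-type kinases rose and CDKA;1 fell slightly. Of 16 kinases, 3 rose and 2 fell in OX3, and 3 rose and 1 fell in WT. The shares of all tested genes were 23.3% higher and 23.8% lower in OX3, and 24.3% and 21.6% in WT. CDKB2;2 (AT1G20930, chromosome 1, 7292389 to 7294746, minus strand), a kinase made from G2 to mitosis and needed for meristem organisation, had 25.5, 24.2 and 24.0 RPKM in OX3 at low phosphate, against 15.5, 14.8 and 15.0 RPKM at normal phosphate. WT libraries had 23.1, 26.1 and 23.5 RPKM at low phosphate, against 13.4, 12.2 and 10.4 RPKM at normal phosphate. The groups were far apart in both genotypes, with log2 changes of 0.67 ± 0.078 in OX3 (SE, limma adjusted p = 5.94e-06) and 0.96 ± 0.078 in WT (1.41e-07). AT1G20925, which overlaps 13.8% of its exon bases on the opposite strand, averaged at most 0.0109 RPKM in any group.

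Its paralog CDKB2;1 (AT1G76540) had 33.4, 33.7 and 33.2 RPKM in OX3 at low phosphate, against 31.7, 28.01 and 28.4 RPKM at normal phosphate, and 31.5, 32.9 and 30.7 RPKM in WT at low phosphate, against 28.8, 26.8 and 25.3 RPKM at normal phosphate. The groups did not overlap, and the log2 changes of 0.18 in OX3 (limma adjusted p = 0.0226) and 0.23 in WT (0.00702) passed. The OX3 call was lost without OX3 low phosphate replicate 1 (limma adjusted p = 0.0513) or 2 (0.0616) or OX3 normal phosphate replicate 3 (0.0928) or 4 (0.0849).

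CDKA;1 (AT3G48750), the main kinase of the plant cell cycle, had 48.5, 44.1 and 44.2 RPKM in OX3 at low phosphate, against 55.6, 55.2 and 54.4 RPKM at normal phosphate. In WT the values were 43.0, 44.5 and 42.7 RPKM at low phosphate, against 53.6, 49.2 and 49.5 RPKM at normal phosphate. Every low phosphate library lay below every normal phosphate one of its genotype, with log2 changes of -0.27 ± 0.053 in OX3 (SE, limma adjusted p = 0.000766) and -0.22 ± 0.053 in WT (0.00335).

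CDKB1;1 (AT3G54180), a kinase of S phase to mitosis that holds back endoreduplication, had 19.4, 18.8 and 20.3 RPKM in OX3 at low phosphate, against 21.3, 22.3 and 21.8 RPKM at normal phosphate. The WT roots had 19.6, 19.6 and 19.3 RPKM at low phosphate, against 19.2, 17.9 and 18.2 RPKM at normal phosphate. All OX3 libraries at low phosphate lay below those at normal phosphate (log2 -0.15, limma adjusted p = 0.0273), while all WT libraries at low phosphate lay above (log2 0.08, 0.242). The OX3 call was lost without OX3 low phosphate replicate 1 (limma adjusted p = 0.0635) or 2 (0.103) or OX3 normal phosphate replicate 3 (0.0896) or 4 (0.067). CDKB1;2 (AT2G38620), its paralog, had 7.03, 7.59 and 7.52 RPKM in OX3 at low phosphate, against 5.66, 6.92 and 6.58 RPKM at normal phosphate (log2 0.19, limma adjusted p = 0.15). WT roots gave 5.63, 7.68 and 6.68 RPKM at low phosphate, against 5.40, 6.07 and 5.32 RPKM at normal phosphate (log2 0.21, limma adjusted p = 0.107), and passed without WT low phosphate replicate 2 (0.0196). AT2G38630 on the opposite strand covers 18.3% of the exon bases of CDKB1;2 and averaged 6.67 to 7.33 RPKM in the 4 groups.

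Of the other kinases, CDKC;1 (AT5G10270), which phosphorylates RNA polymerase II with T-type cyclins, rose by 0.29 in OX3 and 0.23 in WT (limma adjusted p = 0.00189 and 0.00979). The remaining 10, which include the D-type and F-type CDK-activating kinases and the Mediator kinase of the E type, did not pass, with log2 changes of -0.15 to 0.10 in OX3 and -0.09 to 0.20 in WT. The CKS subunits, small proteins that dock CDKs on their substrates, did not pass either, CKS1 changing by 0.13 and CKS2 by 0.00 in OX3, and CKS1 by -0.01 and CKS2 by 0.10 in WT.

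The CDK inhibitors were higher at low phosphate as a sum. The 11 genes together had 134.1 to 136.1 RPKM in OX3 at low phosphate, against 94.2 to 95.4 RPKM at normal phosphate, and 116.9 to 128.1 RPKM in WT at low phosphate, against 85.9 to 94.1 RPKM at normal phosphate. Much of this was SMR3: the other 10, a sum added after the values were seen, had 96.4 to 100.3 RPKM in OX3 at low phosphate, against 79.0 to 81.2 RPKM at normal phosphate, and 83.3 to 91.2 RPKM in WT at low phosphate, against 73.3 to 81.5 RPKM at normal phosphate. Of the 10 tested inhibitors, 5 rose and 1 fell in OX3, and 4 rose and 0 fell in WT. Among all tested genes, 23.3% were called higher and 23.8% lower in OX3, and 24.3% and 21.6% in WT.

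SMR3 (AT5G02420, chromosome 5, 523257 to 524076, plus strand), an inhibitor of the SIAMESE-related family, had the largest change of any member. It had 37.7, 37.8 and 35.8 RPKM in OX3 at low phosphate, against 13.3, 15.7 and 15.2 RPKM at normal phosphate. In the wild type it had 39.4, 31.9 and 33.6 RPKM at low phosphate, against 12.5, 13.9 and 12.6 RPKM at normal phosphate. Mean RPKM was 2.52 times as high at low phosphate in OX3 and 2.69 times in WT, with log2 changes of 1.28 ± 0.080 (SE, limma adjusted p = 9.14e-09) and 1.35 ± 0.080 (4.8e-09).

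SMR2 (AT1G08180) had 14.1, 12.8 and 14.8 RPKM in OX3 at low phosphate, against 9.78, 9.14 and 9.11 RPKM at normal phosphate, and rose by 0.52 (SE 0.13, limma adjusted p = 0.00347). The values in WT were 10.2, 13.1 and 7.78 RPKM at low phosphate, against 8.03, 8.63 and 8.86 RPKM at normal phosphate. The WT groups overlapped through low phosphate replicate 4, and the log2 change of 0.23 (limma adjusted p = 0.154) became 0.40 and passed without that library (0.00494).

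KRP1 (AT2G23430), an inhibitor that binds the A-type kinase and D-type cyclins, had 10.08, 11.5 and 11.01 RPKM in OX3 at low phosphate, against 6.21, 4.96 and 5.80 RPKM at normal phosphate. In WT it had 10.8, 10.7 and 10.9 RPKM at low phosphate, against 6.17, 6.25 and 8.33 RPKM at normal phosphate. The groups did not overlap, and the log2 changes were 0.84 ± 0.10 in OX3 (SE, limma adjusted p = 1.03e-05) and 0.59 ± 0.10 in WT (0.000279). Besides KRP1, the inhibitors with at least 2 matches to AACGG were KRP7 (3) and KRP2 (2). KRP7 was called lower in OX3, and KRP2 was called in neither genotype. The promoter window of KRP1 held 6 matches, the most of any member, and is shown for that reason, with capitals as above.
KRP1, chr2:9978091-9978330, minus strand: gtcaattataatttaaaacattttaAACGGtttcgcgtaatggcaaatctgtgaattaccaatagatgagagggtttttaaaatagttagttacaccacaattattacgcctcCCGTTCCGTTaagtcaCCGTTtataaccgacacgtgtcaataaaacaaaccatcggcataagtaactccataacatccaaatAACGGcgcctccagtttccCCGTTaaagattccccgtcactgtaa

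KRP6 (AT3G19150) rose by 0.48 in OX3 and 0.40 in WT (limma adjusted p = 0.000226 and 0.00102). KRP5 rose by 0.22 in OX3 (limma adjusted p = 0.0318, and 0.0639 with voom) and changed by 0.20 in WT (0.0545), and KRP4 rose by 0.25 in WT (0.0184) and changed by 0.14 in OX3 (0.15). The KRP5 call was lost without OX3 low phosphate replicate 1 (limma adjusted p = 0.0758) or 4 (0.0856) or OX3 normal phosphate replicate 2 (0.117) or 4 (0.115), and that of KRP4 without WT low phosphate replicate 3 (0.0977), without WT normal phosphate replicate 2 (0.0807) or in a fit of the WT libraries alone (0.0532). In WT, KRP5 passed without OX3 normal phosphate replicate 3 (0.0382) or WT low phosphate replicate 2 (0.0346). The exons of KRP4 are covered to 38.7% by AT2G32720 on the opposite strand, which averaged 30.6 to 33.6 RPKM in the 4 groups.

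KRP7 (AT1G49620) was the inhibitor that fell, with 2.60, 2.76 and 2.76 RPKM in OX3 at low phosphate, against 4.02, 3.96 and 3.74 RPKM at normal phosphate (log2 -0.40, limma adjusted p = 0.00381). In WT its groups overlapped, at 3.19, 3.67 and 3.23 RPKM at low phosphate, against 3.09, 4.24 and 3.61 RPKM at normal phosphate (log2 -0.08, limma adjusted p = 0.522). KRP2, KRP3 and SIM did not pass in either genotype, with log2 changes of -0.13 to 0.17 in OX3 and -0.35 to 0.02 in WT. KRP2 passed as lower in WT without WT low phosphate replicate 2 (-0.20, limma adjusted p = 0.0407) and with the correction for GC content and length (-0.20, 0.0395). SIM passed as lower in WT with that correction (-0.42, limma adjusted p = 0.0374) and without WT normal phosphate replicate 2 (-0.49, 0.0277), and AT5G04475 on the opposite strand covers 31.4% of its exon bases.

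Cyclins of the C and T kinds, which act in transcription rather than in the cell cycle, were also among the members called. CYCT1;4 (AT4G19600), a partner of the C-type kinases, had 18.7, 18.9 and 19.2 RPKM in OX3 at low phosphate, against 10.9, 10.9 and 11.7 RPKM at normal phosphate. WT libraries had 19.8, 18.99 and 20.5 RPKM at low phosphate, against 12.6, 12.9 and 14.04 RPKM at normal phosphate, and neither pair of groups overlapped (log2 0.71 ± 0.060 in OX3 and 0.55 ± 0.060 in WT, SE, limma adjusted p = 1.95e-07 and 2.97e-06). CYCC1;2 (AT5G48630), one of 2 adjacent genes for the Mediator cyclin, had 11.6, 11.4 and 11.5 RPKM in OX3 at low phosphate, against 13.5, 16.3 and 16.5 RPKM at normal phosphate (log2 -0.39, limma adjusted p = 0.00127). In WT the values were 10.8, 11.5 and 11.1 RPKM at low phosphate, against 14.2, 11.8 and 12.2 RPKM at normal phosphate (log2 -0.18, limma adjusted p = 0.0924), and passed with the correction for GC content and length (-0.28, 0.00911). CYCT1;5 (AT5G45190), another T-type cyclin, had 14.9, 14.7 and 14.3 RPKM in OX3 at low phosphate, against 11.6, 10.6 and 11.7 RPKM at normal phosphate (log2 0.35, limma adjusted p = 0.00044). The WT roots had 15.2, 16.4 and 17.1 RPKM at low phosphate, against 13.5, 14.7 and 14.4 RPKM at normal phosphate (log2 0.18, limma adjusted p = 0.037), a call lost with median-ratio size factors (0.0518), in a fit of the WT libraries alone (0.0746) and without WT low phosphate replicate 3 (0.0866) or 4 (0.144) or WT normal phosphate replicate 2 (0.131) or 4 (0.0618). CYCC1;1 (AT5G48640), the other gene of the adjacent pair, rose by 0.36 in WT (limma adjusted p = 0.000298) and changed by 0.11 in OX3 (0.157).

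The P-type cyclins resemble yeast cyclins of the phosphate-sensing kinase pathway in sequence. Of the 6 tested, 2 rose and 1 fell in OX3, while 3 rose and 1 fell in WT. The shares of all tested genes were 23.3% higher and 23.8% lower in OX3, and 24.3% and 21.6% in WT. CYCP1;1 (AT3G63120), the most abundant, had 25.6, 24.3 and 25.8 RPKM in OX3 at low phosphate, against 34.3, 33.7 and 33.4 RPKM at normal phosphate (log2 -0.41, limma adjusted p = 5.12e-05). WT roots gave 26.03, 22.8 and 22.6 RPKM at low phosphate, against 31.3, 33.3 and 32.3 RPKM at normal phosphate (log2 -0.43, limma adjusted p = 3.12e-05). All low phosphate libraries lay below all normal phosphate ones in each genotype.

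CYCP4;1 (AT2G44740) had 6.11, 5.70 and 5.02 RPKM in OX3 at low phosphate, against 4.01, 4.17 and 3.43 RPKM at normal phosphate (log2 0.44, limma adjusted p = 0.0315). In the wild type it had 6.33, 4.13 and 6.85 RPKM at low phosphate, against 3.02, 3.49 and 2.18 RPKM at normal phosphate (log2 0.79, limma adjusted p = 0.000782). Neither pair of groups overlapped, but the OX3 call was lost with no minimum level (limma adjusted p = 0.0616), with the correction for GC content and length (0.0743), and without OX3 low phosphate replicate 1 (0.103) or 2 (0.0767) or OX3 normal phosphate replicate 2 (0.057) or 4 (0.11).

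CYCP4;3 (AT5G07450) had 3.37, 3.33 and 2.53 RPKM in OX3 at low phosphate, against 2.36, 1.44 and 1.68 RPKM at normal phosphate (log2 0.53, limma adjusted p = 0.0646). The values in WT were 4.61, 1.71 and 4.26 RPKM at low phosphate, against 1.58, 1.05 and 1.42 RPKM at normal phosphate (log2 0.88, limma adjusted p = 0.00506). Replicate 3 of WT at low phosphate lay close to the normal phosphate libraries, and without it the OX3 change passed (limma adjusted p = 0.00613). That change passed also without WT low phosphate replicate 2 (0.0461), without OX3 normal phosphate replicate 2 (0.0467) and in a fit of the OX3 libraries alone (0.00866). CYCP3;2 rose by 0.31 in OX3 (limma adjusted p = 0.0101, and 0.0513 without OX3 normal phosphate replicate 4) and by 0.40 in WT (0.00178). The last 2, CYCP3;1 and CYCP4;2, did not pass.

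Genes of the phosphate starvation response often carry the element GNATATNC, where N is any base, which the transcription factor PHR1 binds. It was found within 250 bases before the start of 6 of 82 members (7.32%) and 5.48% of all promoters. Of these 6, 5 were called higher in both genotypes: SMR3, CYCT1;4, CDKB2;1, CDKB2;2 and CYCP4;1. The sixth, CYCP4;2, had 2 matches and did not pass (log2 0.42 in OX3 and 0.39 in WT, limma adjusted p = 0.0631 and 0.0882), except without WT normal phosphate replicate 2 (0.0462 and 0.027) or, in OX3, OX3 low phosphate replicate 4 (0.0255). AT5G61660 on the opposite strand, not analysed here, covers 71.7% of the exon bases of this gene, so reads of both could not be told apart without strand. Shares with a match were 5 of 21 members called higher in OX3 (23.8%) and 5 of 26 in WT (19.2%), beside 8.17% and 7.91% of all genes called higher. Of the uncalled members, 1 of 44 in OX3 and 1 of 41 in WT had a match. Among all 1020 tested protein-coding genes with a match, 354 were called higher in OX3 and 359 in WT. Windows of the called members with a match are shown because these members rose, with the match in capitals. That of CDKB2;1, which overlaps a neighbouring gene, is left out.
SMR3, chr5:523031-523088, plus strand: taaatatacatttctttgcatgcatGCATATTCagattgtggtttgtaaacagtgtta
CDKB2;2, chr1:7294773-7294830, minus strand: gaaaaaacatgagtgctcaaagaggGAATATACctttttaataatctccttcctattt
CYCP4;1, chr2:18443614-18443655, minus strand: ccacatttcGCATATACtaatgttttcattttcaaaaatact
CYCT1;4, chr4:10672673-10672730, plus strand: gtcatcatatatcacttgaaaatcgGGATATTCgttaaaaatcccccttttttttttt
A match is a run of letters, and binding was not measured.

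Genes that the annotation names as cyclins in the description alone behaved unlike a class. AT1G67250, which the reference annotates as a proteasome maturation factor, rose by 0.34 in WT (limma adjusted p = 0.00219) and by 0.22 in OX3 (0.0287), a call lost in OX3 without OX3 low phosphate replicate 2 (0.0802) or 4 (0.136) or OX3 normal phosphate replicate 2 (0.0987) or 4 (0.0582). AT5G01800, a saposin B domain protein, rose by 0.22 in OX3 (limma adjusted p = 0.00254) and changed by 0.09 in WT (0.157). APE1 (AT5G38660), a gene for acclimation of photosynthesis, had 5.05, 5.79 and 5.21 RPKM in WT at low phosphate, against 6.52, 6.70 and 6.56 RPKM at normal phosphate, and fell by 0.26 (limma adjusted p = 0.0076). Other genes overlap 44.8% of its exon bases. Without the 7 genes of this kind, 19 of 69 tested members rose and 8 fell in OX3, and 25 rose and 5 fell in WT. Among all tested genes, 23.3% were called higher and 23.8% lower in OX3, and 24.3% and 21.6% in WT.

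Other genes of cell division were examined beside the members. Of all tested genes, 23.3% were called higher and 23.8% lower in OX3, and 24.3% and 21.6% in WT. Of 14 genes of mitosis and cytokinesis, 5 rose and 0 fell in OX3, and 9 rose and 0 fell in WT, among them TPX2, a spindle assembly factor (0.58 and 0.50), and CDC20.1, an activator of the anaphase-promoting complex (0.43 and 0.42). Of 15 DNA replication genes, 1 rose and 1 fell in OX3, and 5 rose and 0 fell in WT. Of these 15 changes, 6 were above 0 in OX3 and 13 in WT. In the retinoblastoma and E2F group, 1 of 9 rose and 0 fell in OX3, and 1 rose and 1 fell in WT. Of 4 activators of the anaphase-promoting complex and endoreduplication genes, 1 rose in OX3 and 2 rose in WT. Of 5 tested CDK inhibitors or regulators whose description lacks the word cyclin, 1 rose and 1 fell in OX3, and 2 rose in WT. SMR8 led them, with 13.4, 11.8 and 14.4 RPKM in OX3 at low phosphate, against 6.93, 6.49 and 5.83 RPKM at normal phosphate (log2 0.93, limma adjusted p = 4.55e-07), and 14.3, 14.8 and 13.7 RPKM in WT at low phosphate, against 6.96, 7.45 and 6.46 RPKM at normal phosphate (log2 0.94, 4.28e-07).

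The calls of both genotypes were compared next. Of the members called higher, 18 were called in both, which was 85.7% of the OX3 calls and 69.2% of the WT calls. Of those called lower, 5 were called in both, which was 62.5% of the OX3 calls and 83.3% of the WT calls. No member was called in opposite directions, 59 of 73 had the same sign, and 35 were called in neither genotype. Across the 73 members the log2 changes had a Pearson r of 0.887, a description over genes that share libraries and are not replicates. The difference between genotypes in the phosphate response passed for 0 of 73 members and 0 of 18910 genes (0% of tested genes called) with limma, and voom also called 0, while 8 members and 1351 genes had an unadjusted p below 0.05.

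**Figure D4:**
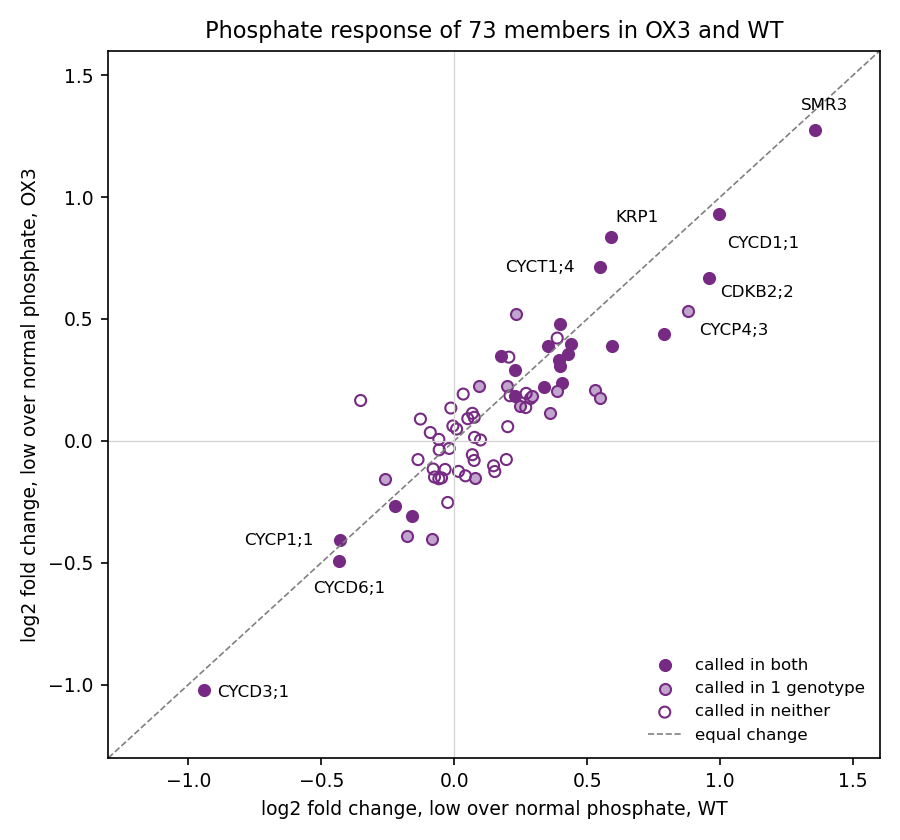
Log2 fold change (low over normal phosphate) of each of the 73 tested members in OX3 (vertical axis) and WT (horizontal axis), with the dashed line marking equal change and the fill showing in how many genotypes the member was called. Points lie along the line from CYCD3;1 at -1.02 and -0.94 to SMR3 at 1.28 and 1.35, and the points of CDKB2;2 and CYCP4;3 fall under the line.

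The 3 members with the smallest unadjusted p for that difference were CDKB1;1 (OX3 change minus WT change of -0.23, limma adjusted p = 0.63), CYCA3;2 (-0.28, 0.637) and CYCC1;1 (-0.25, 0.652), none of which passed. CYCA3;2 had 16.01, 15.3 and 15.2 RPKM in OX3 at low phosphate, against 15.5, 17.97 and 17.5 RPKM at normal phosphate, and 15.6, 17.5 and 15.8 RPKM in WT at low phosphate, against 14.7, 14.3 and 14.6 RPKM at normal phosphate. CYCC1;1 had 16.6, 15.9 and 17.7 RPKM in OX3 at low phosphate, against 14.6, 15.0 and 16.6 RPKM at normal phosphate, and 18.1, 17.9 and 16.7 RPKM in WT at low phosphate, against 13.2, 13.6 and 13.5 RPKM at normal phosphate. In all 3, WT at normal phosphate had the lowest of the 4 group means.

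Between genotypes few members were called. At normal phosphate 3 members were higher (4.11%) and 2 lower (2.74%) in OX3 than in WT, 6.85% in either direction. Of all tested genes, 1.37% were called higher and 1.73% lower (3.1% in either direction). CDKB2;2 had 15.5, 14.8 and 15.0 RPKM in OX3 and 13.4, 12.2 and 10.4 RPKM in WT, a log2 difference of 0.31 ± 0.078 (SE, limma adjusted p = 0.0474). CKS2 (AT2G27970) had 47.0, 51.4 and 48.9 RPKM in OX3 and 40.7, 41.3 and 39.4 RPKM in WT (log2 0.27, limma adjusted p = 0.0315). CDKB1;1 had 21.3, 22.3 and 21.8 RPKM in OX3 and 19.2, 17.9 and 18.2 RPKM in WT (log2 0.23, limma adjusted p = 0.0374).

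The members lower in OX3 were a T-type cyclin and a kinase. CYCT1;5 (AT5G45190) had 11.6, 10.6 and 11.7 RPKM in OX3 and 13.5, 14.7 and 14.4 RPKM in WT (log2 -0.31, limma adjusted p = 0.0267). AT5G45430, described as a kinase of the F group, had 47.9, 45.3 and 43.5 RPKM in OX3 and 51.8, 53.0 and 55.4 RPKM in WT (log2 -0.22, limma adjusted p = 0.04). None of the 5 pairs of groups overlapped, against 17 members above and 8 below in all (17.7% and 15.1% of tested genes, and 32.8% in either direction).

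None of the 5 calls was kept in every omission of a single library. Without OX3 normal phosphate replicate 3 or 4, or WT normal phosphate replicate 3 or 4, 0 members were called higher and 0 lower. Calls over all genes also fell in these omissions, from 259 higher and 328 lower with all libraries. They were 22 and 15 without OX3 normal phosphate replicate 3, and 4 and 4 without its replicate 4. Without WT normal phosphate replicate 3 they were 25 and 37, and without its replicate 4 they were 19 and 20. The correction for GC content and length left 0 members higher and 1 lower, and no minimum level left 1 and 1. CDKB2;2 was lost also without OX3 low phosphate replicate 1 (limma adjusted p = 0.0555) or 2 (0.0634), OX3 normal phosphate replicate 2 (0.1) or WT low phosphate replicate 4 (0.0537), CDKB1;1 without OX3 normal phosphate replicate 2 (0.0589), and AT5G45430 without OX3 low phosphate replicate 2 (0.0556). The photosynthesis genes LHCB1.3 and RBCS1A were higher in OX3 than in WT at normal phosphate too, by 0.62 and 0.58 on the log2 scale (limma adjusted p = 0.00785 for each, and 0.0545 without OX3 normal phosphate replicate 4), with summed shoot markers of 552.2 to 577.1 RPKM in OX3 and 347.2 to 403.3 RPKM in WT. Their part in the member differences was not tested.

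**Figure D5:**
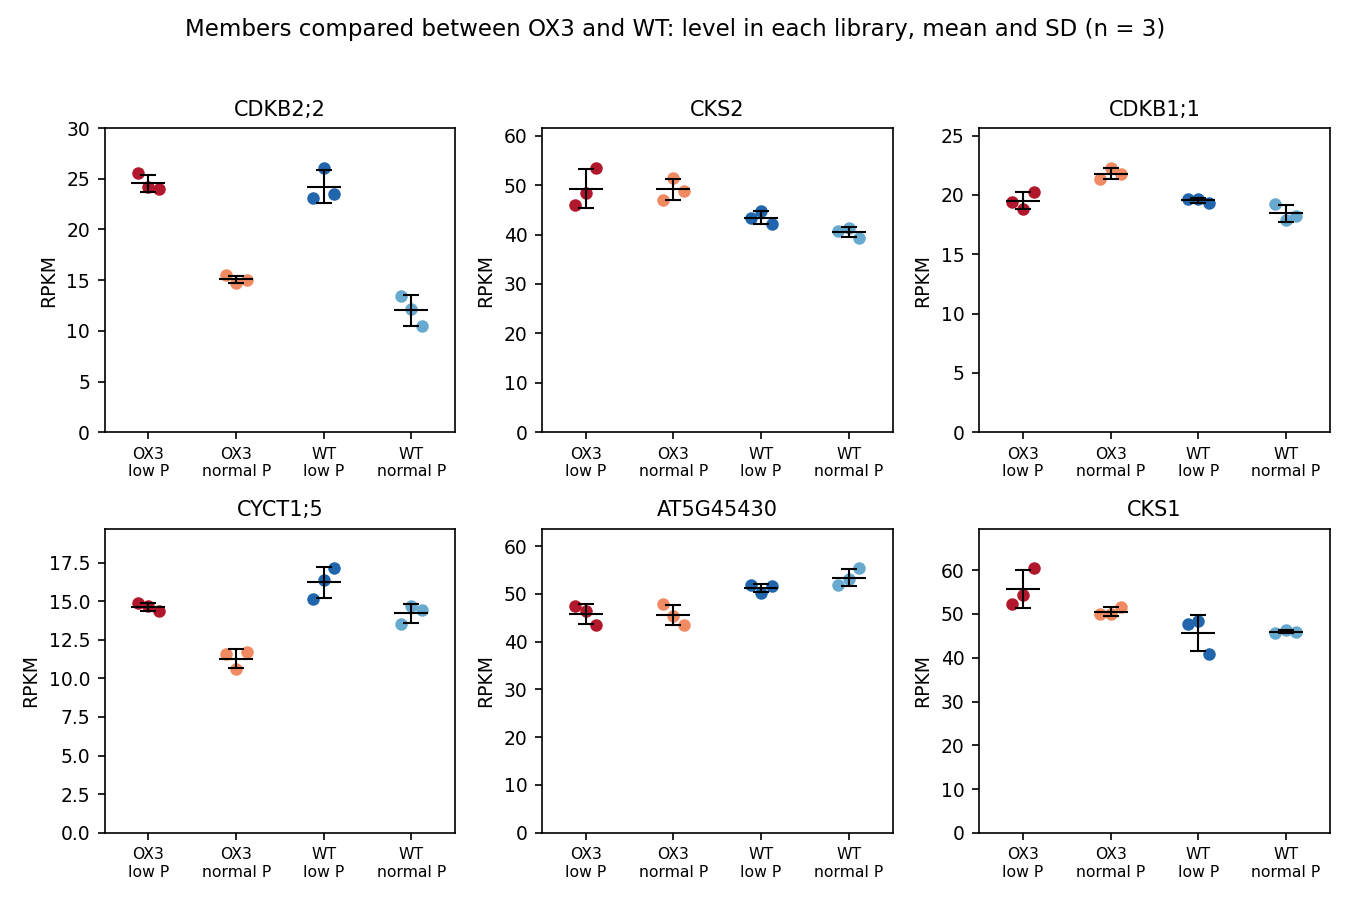
Level (RPKM, axes from 0) of the 5 members called between OX3 and WT at normal phosphate, and of CKS1, which was not called, in each library (points), with group means and SD (n = 3). At normal phosphate all OX3 libraries lie above the WT libraries for CDKB2;2, CKS2, CDKB1;1 and CKS1 and below them for CYCT1;5 and AT5G45430.

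At low phosphate 0 of 73 members were called between OX3 and WT with limma, where 0.0159% of all genes were higher and 0.0264% lower (0.0423% in either direction), and 12 members had an unadjusted p below 0.05. The 3 members with the smallest p-values were a CKS subunit, a B-type cyclin and an inhibitor. CKS1 (AT2G27960) had 52.2, 54.4 and 60.5 RPKM in OX3 and 47.7, 48.3 and 40.9 RPKM in WT (log2 0.28, limma adjusted p = 0.166). CYCB3;1 (AT1G16330) had 4.16, 4.68 and 4.29 RPKM in OX3 and 5.53, 6.40 and 6.48 RPKM in WT (log2 -0.41, limma adjusted p = 0.166). KRP2 (AT3G50630) had 22.2, 24.1 and 24.2 RPKM in OX3 and 20.9, 18.9 and 16.6 RPKM in WT (log2 0.31, limma adjusted p = 0.172), and passed without WT low phosphate replicate 2 (0.39, 0.0402). Without that library, 112 of 18891 tested genes were called higher and 84 lower, against 3 and 5 of 18910 with all libraries. The groups of CKS1, CYCB3;1 and KRP2 did not overlap, as was so for 7.13% of all genes above and 9.95% below (17.1% in either direction). A p that misses the threshold does not show equal levels.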

How the data were processed

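RNA sequencing libraries of roots were made with a BGI RNA-Seq kit after CTAB-PBIOZOL extraction and ethanol precipitation, per the labels' protocols. The deposited table holds values for 25941 genes, and their unit, RPKM, was inferred from the values. The submitters' processing notes list HTSeq 0.6.0 and TAIR10 with no role, and the aligner and the use of strand are not given in the sources used here. Reads were recovered from the deposited RPKM with library totals chosen to give whole numbers, and with RefSeq exon lengths for 25547 genes. For the other genes a length that gives whole numbers was searched for. Whole reads within 0.01 read for 100% of genes were thus partly built in. Of the gene IDs, 25688 matched RefSeq's TAIR10.1, and all 84 members have the same coordinates there.

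The main test was limma 3.58.1 (R 4.3.3) with the variance modelled as a trend on the mean level, run on log2(RPKM + 1) of the genes whose mean over 12 libraries reached 1 RPKM. All 4 groups entered 1 fit with 5 contrasts, and p-values were adjusted over 18910 genes. Summaries and figures used Python 3.11.15, pandas 2.3.3, numpy 2.4.6 and matplotlib 3.10.9. The script was tested on simulated data. Alternatives were median-ratio size factors, no minimum level, a pseudocount of 0.1, fits of the compared groups alone, the replicate number as a block, voom on the recovered reads, a minimum absolute log2 change of 1 and leaving out each library. A correction for GC content and exon length was added after the data were seen.

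Members, lists and tests were chosen with earlier results of these data known. Values in every library are given for the 6 called members with the highest and the 6 with the lowest change in each comparison, for 9 cell cycle genes whatever their p, and for the 3 smallest p-values where none was called. CYCA2;4, CYCC1;1 in WT, SMR8 and the promoters shown were added after their values were seen. SMR5 and FIL, which stand in the lists, are not analysed here.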

Additional observations from a re-analysis of the deposited data

Results flagged for a closer look

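CDKB1;1 was examined again because its libraries were placed in opposite order in the genotypes. All OX3 libraries at low phosphate (18.8 to 20.3 RPKM) lay below those at normal phosphate (21.3 to 22.3 RPKM), and all WT libraries at low phosphate (19.3 to 19.6 RPKM) lay above those at normal phosphate (17.9 to 19.2 RPKM). The OX3 change passed (log2 -0.15, limma adjusted p = 0.0273) and the WT change did not (log2 0.08, 0.242). The OX3 change minus the WT change was -0.233 ± 0.075 on the log2 scale (SE, limma), with an unadjusted p of 0.00746 and an adjusted p of 0.63, so that the difference did not pass.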

How the results depend on the processing

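No call of a member or list gene reversed under any alternative. With a minimum absolute log2 change of 1, 1 member was higher and 1 lower at low phosphate in OX3, and 1 was higher and 0 lower in WT. With the same minimum, 0 were higher and 0 lower in OX3 than in WT at normal phosphate. Over all 18910 tested genes these counts were 856 and 634 in OX3, 846 and 627 in WT, and 8 and 2 between genotypes. At normal phosphate, the counts higher and lower in OX3 than in WT were 1 and 1 with no minimum level, 1 and 0 with the replicate block, 0 and 1 with the correction for GC content and length, and 4 lower with voom on the recovered reads. The labels do not state that the replicate numbers pair the samples. Same-numbered libraries of different groups had correlations of deviations from -0.14 to 0.08, and different-numbered ones from -0.19 to 0.23. With 3 libraries a group, these correlations cannot decide whether samples were paired. With the block, 18 members were higher and 6 lower in OX3 and 25 higher and 6 lower in WT. Leaving out 1 library gave 16 to 23 higher and 6 to 9 lower in OX3, 21 to 31 higher and 4 to 7 lower in WT, 0 to 4 higher and 0 to 4 lower between genotypes at normal phosphate, 0 to 1 higher and 0 lower at low phosphate, and 0 for the genotype difference in the response. At normal phosphate the lower count was 1 without OX3 low phosphate replicate 2, and 4 without OX3 low phosphate replicate 4, WT low phosphate replicate 2 or WT normal phosphate replicate 2. The 1 call at low phosphate was KRP2, without WT low phosphate replicate 2. Kept in all 12 omissions were 13 of 21 higher and 6 of 8 lower calls in OX3, 20 of 26 and 4 of 6 in WT, and 0 of 3 and 0 of 2 between genotypes at normal phosphate. A fit of the compared groups alone was not run for the genotype difference in the response. The causes were not tested, and 3 libraries a group limit the precision.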
